A study of Mus musculus with 6 samples.

Results

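Amino acids and small transmitters enter cells, leave them and move between their compartments through membrane carriers of the solute carrier (Slc) families. The genes described here are the rows of the deposited count files whose symbols are a member number of Slc1a, Slc3a, Slc6a, Slc7a, Slc36a, Slc38a or Slc43a, which gave 59 of the 23284 genes in the files. Slc6a20a, Slc6a20b and Slc7a6os carry letters after the number and are not among them. They were measured by bulk RNA sequencing in isolated islets of mice aged 12 weeks, with strain given as C56BL/J. In the knockout group (libraries 4, 5 and 6) both Neurod1 alleles were flanked by loxP sites and Cre recombinase was expressed from the Rip-Cre transgene, which uses the rat insulin promoter that is active in beta cells. The control group (libraries 7, 10 and 16) had the same floxed alleles and no Cre, so the transgene and the loss of Neurod1 cannot be told apart. Neurod1 is a transcription factor of endocrine cells and neurons.

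Transport of amino acids has several uses in islets. Arginine and other cationic amino acids depolarise beta cells on entry, leucine and glutamine feed mitochondrial metabolism and the growth kinase mTORC1, and taurine, glycine, glutamate and GABA are osmolytes or signals. Most members of the Slc7 light-chain group reach the plasma membrane only when linked to a heavy chain, Slc3a1 or Slc3a2. The Slc6 and Slc1 carriers use the sodium gradient, and the Slc38 carriers move neutral amino acids such as glutamine with sodium. Slc36a1 uses protons, and the Slc43 carriers work by facilitated diffusion.

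Neurod1 was lower in all 3 knockout libraries, at 28.4, 29.8 and 31.3 counts per 1e+06 counts (CPM) in libraries 4, 5 and 6 against 198, 177 and 141 CPM in control libraries 7, 10 and 16 (log2 fold change -2.53, SE 0.13, adjusted p = 1.74e-05 by edgeR's quasi-likelihood test). Library totals lay between 12206393 and 20412435 counts. All 8 beta cell markers were detected, with summed levels of 173000 to 192000 CPM in control and 131000 to 148000 CPM in knockout islets, and 2 were higher and 2 lower. Of the insulin genes, Ins1 fell from 48700 ± 3300 to 4310 ± 1530 CPM (SD, n = 3 each), while Ins2 stood at 111000 ± 5360 and 113000 ± 7420 CPM and did not pass. The 19 acinar markers, taken to mark exocrine cells carried along with islets, summed to 51500, 42800 and 14200 CPM in control libraries 7, 10 and 16. In knockout libraries 4, 5 and 6 they summed to 5080, 15000 and 10800 CPM, and 2 of them passed the test, both lower. Bhlha15 alone of this list had a higher estimate in the knockout. It stood at 87.4 ± 22.6 CPM in control and 125 ± 23.9 CPM in knockout libraries (log2 fold change 0.52, SE 0.24) and did not pass. The 10 endothelial markers summed to 966 to 970 CPM in control and 618 to 730 CPM in knockout libraries, with 8 lower. The alpha cell markers summed to 37200 to 50300 and 26300 to 35000 CPM, with 1 of 8 lower. The 10 stellate and fibroblast markers had 4 lower, the 8 duct markers 1 higher and 4 lower, the 9 Schwann cell and neuron markers 2 higher and 3 lower, and the 10 leukocyte markers found in the files 1 lower. No marker of these lists was at 0 in all libraries. In bulk islets, fewer cells of a type and less RNA per cell cannot be told apart. Whether the libraries stem from different animals is not in the labels, and p-values therefore reflect only the spread among these samples, which may be technical.

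Among the 59 transporter genes, 39 had enough counts to be tested. Knockout islets had 4 of them higher and 13 lower (adjusted p under 0.05), and 22 did not pass. Over all 14770 genes tested, 24.4% were called, 11.8% as higher and 12.6% as lower. The median log2 fold change was -0.09 over the 39 transporters and -0.01 over all genes. The difference reached 2-fold in 2 genes that were higher and 3 that were lower, against 5.75% of all genes tested in either direction. The 3 knockout libraries lay wholly above the 3 control libraries for 5 transporters and wholly below them for 14, where 42% of all genes tested had groups that did not overlap. The genes that rose were Slc6a15, Slc7a8, Slc6a6 and Slc3a2. The genes that fell were Slc7a15, Slc1a4, Slc6a9, Slc43a3, Slc38a7, Slc7a1, Slc7a5, Slc7a2, Slc36a1, Slc6a17, Slc7a6, Slc6a8 and Slc38a2. The authors' deposited table of their DESeq comparison calls the same 4 genes higher and the same 13 lower. Reads of all 59 genes together made up 4100, 4380 and 3840 CPM in knockout libraries 4, 5 and 6 and 4100, 4200 and 3880 CPM in control libraries 7, 10 and 16, so that the groups overlapped in this sum.

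**Figure D1:**
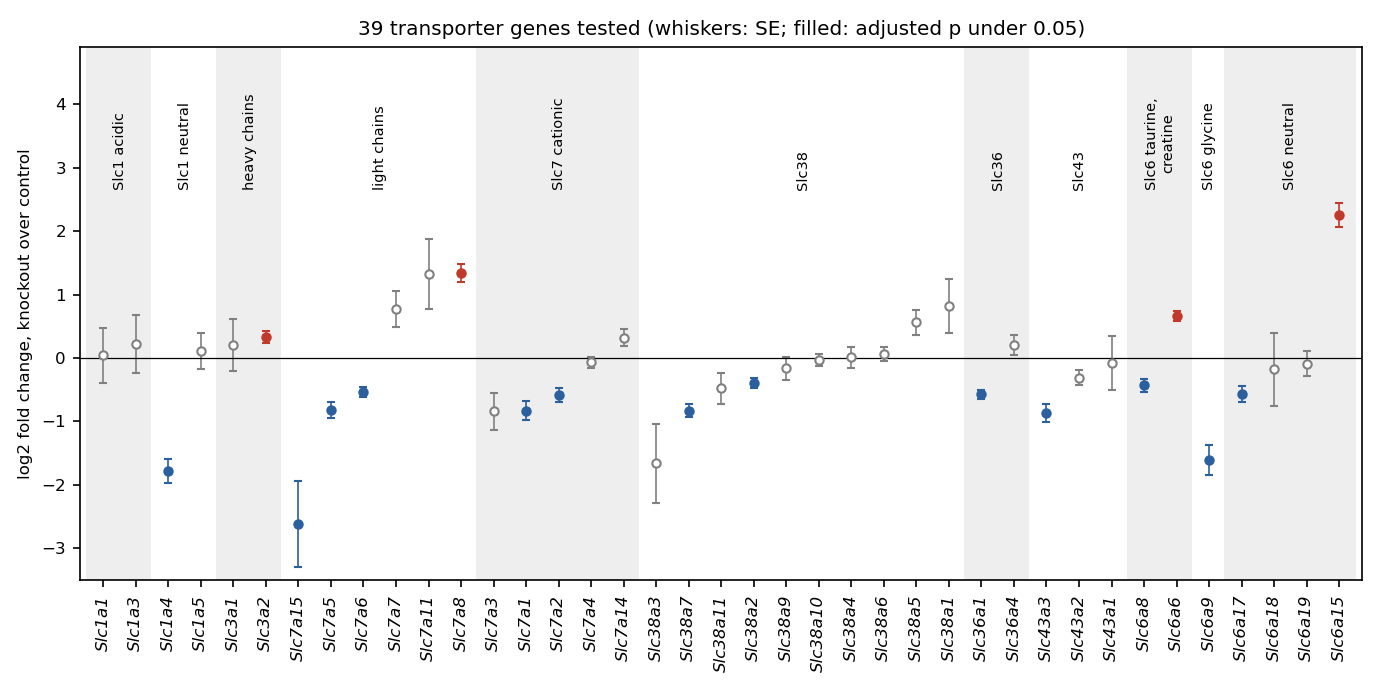
Log2 fold change (knockout over control, vertical axis) of the 39 transporter genes tested, grouped by family and substrate, with standard errors as whiskers. Filled red (4) and blue (13) points passed an adjusted p of 0.05 as higher and lower, open grey points (22) did not, and the values run from -2.62 for Slc7a15 to 2.26 for Slc6a15.

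The largest rise was in Slc6a15, a sodium-coupled carrier of branched-chain amino acids and proline that is best known from neurons. It had 24.4, 28.7 and 27.3 CPM in knockout libraries 4, 5 and 6 and 3.98, 5.74 and 7.2 CPM in control libraries 7, 10 and 16. Every knockout library was above every control library. The rise was 4.78-fold (log2 fold change 2.26, SE 0.19, adjusted p = 1.55e-04). The largest fall among genes with at least 5 CPM was in Slc1a4, an exchanger of alanine, serine, cysteine and threonine. Knockout libraries, in the same order, had 12.9, 8.85 and 11.7 CPM, and control libraries had 47.8, 35 and 31.8 CPM. The groups were apart, and the fall was 3.43-fold (log2 fold change -1.78, SE 0.19, adjusted p = 7.2e-04). Its close relative Slc1a5, which carries glutamine among other neutral amino acids, overlapped between groups (19.3 ± 3.96 CPM in control and 21 ± 7.44 CPM in knockout, SD, n = 3 each) and did not pass (log2 fold change 0.11, SE 0.29). Of the acidic amino acid carriers of this family, Slc1a1 (0.04, SE 0.43) and Slc1a3 (0.22, SE 0.46) were tested at under 2 CPM in each group's mean and did not pass.

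**Figure D2:**
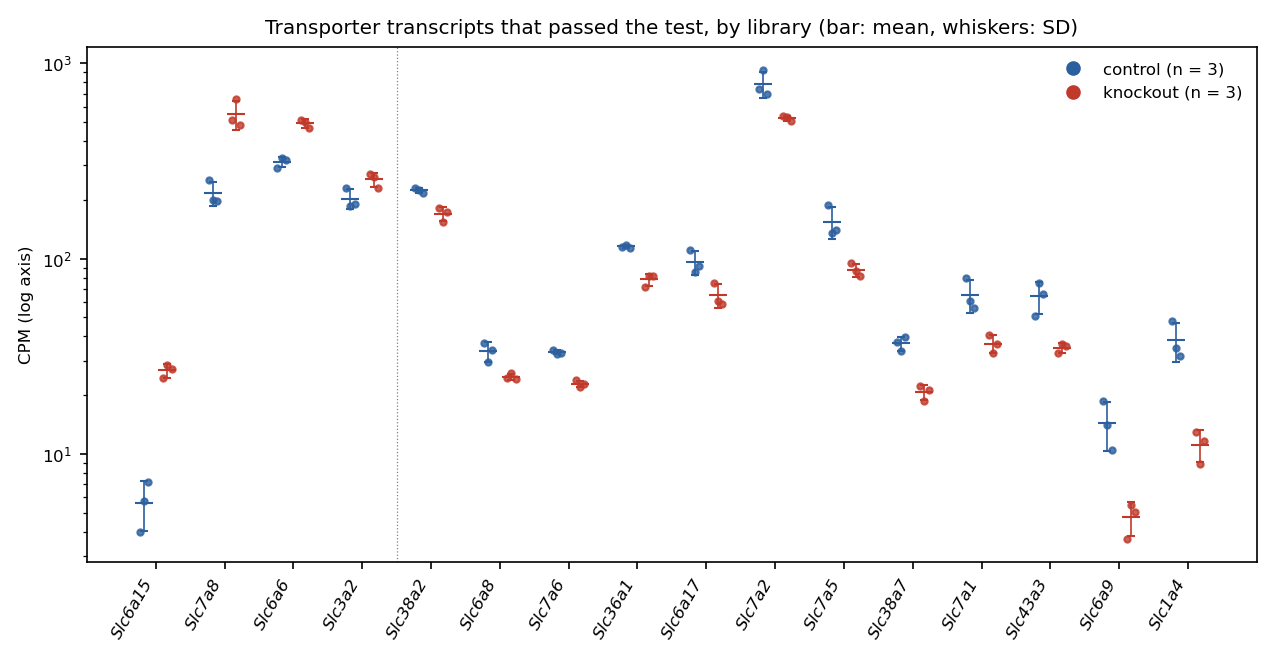
CPM (log axis) of 16 of the 17 transporter transcripts that passed the test, in each library, with controls in blue and knockouts in red. Bars are group means and whiskers are SD of 3 libraries, the dotted line parts the 4 genes that rose from those that fell, Slc3a2 alone of the 16 has groups that touch, and Slc7a15 is left out because knockout library 4 had 0 counts.

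The genes of the heterodimeric carriers moved in opposite directions. Slc7a8 and Slc7a5 encode light chains that exchange large neutral amino acids such as leucine across the plasma membrane. Slc7a8 rose 2.54-fold, with 514, 656 and 481 CPM in knockout libraries 4, 5 and 6 and 253, 199 and 198 CPM in control libraries 7, 10 and 16 (log2 fold change 1.34, SE 0.14, adjusted p = 5.26e-04). Slc7a5 fell 1.77-fold, with 94.6, 86.9 and 81.4 CPM in knockout and 189, 136 and 140 CPM in control libraries (log2 fold change -0.82, SE 0.13, adjusted p = 0.00399). Neither gene had overlapping groups. Slc7a8 reads per Slc7a5 read were therefore 5.43, 7.55 and 5.92 in knockout libraries and 1.34, 1.47 and 1.42 in control libraries, with means of 6.3 ± 1.11 and 1.41 ± 0.0656 (SD, n = 3 each), a ratio picked after the values were seen. Slc3a2, the heavy chain of both, had 271, 262 and 231 CPM in knockout and 231, 187 and 191 CPM in control libraries, so that knockout library 6 was level with control library 7. Its rise of 1.25-fold was close to the threshold (log2 fold change 0.33, SE 0.10, adjusted p = 0.048). It did not pass without knockout library 4 (adjusted p = 0.116), knockout library 5 (0.117), control library 10 (0.159) or control library 16 (0.141). Nor did it with upper-quartile factors (0.055), limma-voom (0.0511), no robust estimation (0.0559) or the mean acinar marker level as a covariate in edgeR (0.234). It passed by DESeq2, with no filter on low counts, and without knockout library 6 or control library 7.

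Other light chains had smaller or less certain differences. Slc7a6, which exchanges cationic for neutral amino acids, fell from 34, 32.6 and 32.8 CPM in control libraries 7, 10 and 16 to 23.8, 22.1 and 22.7 CPM in knockout libraries 4, 5 and 6 (log2 fold change -0.53, SE 0.08, adjusted p = 0.00184). Slc7a7, of the same exchange type, stood at 3.53 ± 0.858 and 6.1 ± 1.96 CPM (SD over 3 libraries each, log2 fold change 0.77, SE 0.28), with groups that did not overlap and an adjusted p of 0.0759 by edgeR. Slc7a11, the cystine and glutamate exchanger, stood at 3.15, 4.76 and 0.755 CPM in control libraries 7, 10 and 16 and at 7.06, 5.7 and 9.56 CPM in knockout libraries 4, 5 and 6. The groups were apart, but control library 16 was far below the other control libraries, and the difference did not pass (log2 fold change 1.33, SE 0.55, adjusted p = 0.133). DESeq2 called it (1.36, adjusted p = 0.0248). Slc7a15 had 14, 18 and 16 counts in control libraries 7, 10 and 16 and 0, 3 and 3 counts in knockout libraries 4, 5 and 6. Its fitted log2 fold change of -2.62 (SE 0.68, adjusted p = 0.0233) depends on the prior count, and it did not pass without control library 10 or 16 (adjusted p = 0.0688 and 0.0672). Slc3a1, the heavy chain used in kidney and gut, was near 1 CPM in both groups (0.20, SE 0.41) and did not pass.

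Promoter sequences are shown for 4 transporters from the RefSeq promoter table (assembly GRCm38.p6, whose coordinates are not those of the mm9 build named for the counts), which held 62 windows for 41 of the 59 transporters. Each window is the 250 bases before an annotated start, read on the strand of the gene. It was searched on both strands for CAGATG, an E-box sequence bound by Neurod1 and its relatives, and for TGATGNAA, the core of the element through which Atf4 acts on amino acid response genes, and matches are in capitals. Slc7a8 and Slc1a4 are shown for the opposite direction of their differences, Slc6a9 (the first of its 3 windows) as the next largest fall after Slc1a4 among called genes with at least 5 CPM in the higher group, which leaves out Slc7a15, and Slc7a11, picked after its values were seen, because it holds a pair of TGATGNAA matches.
Slc7a8, chr14:54781887-54782136 (- strand): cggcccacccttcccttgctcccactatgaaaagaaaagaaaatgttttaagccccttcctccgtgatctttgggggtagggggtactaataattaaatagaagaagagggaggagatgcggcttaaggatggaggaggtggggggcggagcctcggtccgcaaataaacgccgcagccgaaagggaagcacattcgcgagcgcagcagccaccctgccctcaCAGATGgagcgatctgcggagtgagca
Slc1a4, chr11:20332714-20332963 (- strand): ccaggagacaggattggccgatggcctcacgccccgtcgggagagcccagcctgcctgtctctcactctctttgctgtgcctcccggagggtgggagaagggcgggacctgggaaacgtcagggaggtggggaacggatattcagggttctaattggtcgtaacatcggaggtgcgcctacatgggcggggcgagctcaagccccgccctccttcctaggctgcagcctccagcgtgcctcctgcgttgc
Slc6a9, chr4:117835008-117835257 (+ strand): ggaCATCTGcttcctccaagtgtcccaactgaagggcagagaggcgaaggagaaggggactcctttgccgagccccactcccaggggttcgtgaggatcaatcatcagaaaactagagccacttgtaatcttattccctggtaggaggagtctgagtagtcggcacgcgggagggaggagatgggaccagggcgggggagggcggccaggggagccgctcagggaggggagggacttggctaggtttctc
Slc7a11, chr3:50443614-50443863 (- strand): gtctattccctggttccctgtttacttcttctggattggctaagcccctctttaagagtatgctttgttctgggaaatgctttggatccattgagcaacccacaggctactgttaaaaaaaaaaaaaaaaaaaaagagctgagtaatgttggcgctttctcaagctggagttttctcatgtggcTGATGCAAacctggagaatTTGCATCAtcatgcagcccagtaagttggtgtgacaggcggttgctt

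The Slc7a8 window held CAGATG from base 27 before the start, on the strand of the gene. The Slc6a9 window held it from base 247 before the start, on the other strand, and the Slc1a4 window held neither sequence. The Slc6a9 windows that are not shown held neither sequence. Slc6a15 and Slc6a6, which rose, have no window in the promoter table. In the Slc7a11 window TGATGNAA began at bases 66 and 47 before the start, on either strand. CAGATG was found in 17.7% of the 62 transporter windows and in 14.4% of all 32851 windows of the table. TGATGNAA was found in 4.84% of the transporter windows (those of Slc7a11 and Slc7a7) and in 3.45% of all windows. None of the 15 windows of the 9 genes that fell and are in the table held TGATGNAA, and 4 of these windows (of Slc6a17, Slc6a9 and Slc7a15) held CAGATG. A match shows only that these letters are present.

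Of the 5 Slc7 genes of the cationic amino acid group, 2 fell and 3 did not pass (40% called, against 24.4% over all genes tested). Slc7a1, a widely expressed arginine and lysine carrier, had 79.9, 60.8 and 55.8 CPM in control libraries 7, 10 and 16 and 40.9, 32.8 and 36.7 CPM in knockout libraries 4, 5 and 6 (log2 fold change -0.83, SE 0.15, adjusted p = 0.00585). Slc7a2, the second cationic carrier, had 738, 920 and 695 CPM in control and 535, 530 and 504 CPM in knockout libraries (log2 fold change -0.58, SE 0.11, adjusted p = 0.00676). Every knockout library was below every control library for both genes. The summed alpha cell markers, most of which were Gcg reads, were also lower in each knockout library than in each control library. Gcg itself did not pass (-0.45, SE 0.16, adjusted p = 0.0663 by edgeR). Of the 8 markers, 2 lay wholly below the controls, Gcg and Irx1, and the others overlapped between groups. The part of alpha cell RNA in the fall of Slc7a2 was not tested. Slc7a3 stood at 2.38 ± 0.286 and 1.33 ± 0.326 CPM (-0.84, SE 0.29, adjusted p = 0.0657 by edgeR), again without overlap. The related genes Slc7a14 (323 ± 43.7 CPM in control, 403 ± 61.3 CPM in knockout, 0.32, SE 0.13) and Slc7a4 (45.3 ± 2.13 and 43.2 ± 3.43 CPM, -0.07, SE 0.08) did not pass.

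The sodium-coupled neutral carriers of the Slc38 family had 2 genes lower, 0 higher and 8 that did not pass, out of 10 tested by edgeR. That is 20% called, near the 24.4% over all genes tested. At an unadjusted p under 0.05 edgeR had 1 higher, Slc38a5, which DESeq2 called. Slc38a7, a glutamine carrier of lysosomes, fell 1.78-fold, from 37.6, 33.5 and 39.5 CPM in control libraries 7, 10 and 16 to 22.2, 18.6 and 21.3 CPM in knockout libraries 4, 5 and 6 (log2 fold change -0.83, SE 0.10, adjusted p = 7.36e-04). Slc38a2, a carrier of small neutral amino acids that many cells induce when amino acids are scarce, fell 1.32-fold, from 230, 224 and 218 CPM to 181, 154 and 173 CPM (log2 fold change -0.40, SE 0.08, adjusted p = 0.00685). Both had groups that did not overlap. Slc38a4, which carries small neutral amino acids, stood at 494 ± 98.2 and 497 ± 66.9 CPM (SD, n = 3 each), and Slc38a10 at 408 ± 46.9 and 401 ± 31.6 CPM. The log2 fold changes of 0.01 (SE 0.16) for Slc38a4 and -0.03 (SE 0.10) for Slc38a10 were both smaller than their standard errors. Slc38a9, the arginine sensor of the lysosome that acts on mTORC1, differed by -0.16 (SE 0.18), and Slc38a6 by 0.07 (SE 0.11).

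Slc38a3 and Slc38a5 were called by some fits only. Slc38a3, a glutamine carrier, had 7.64, 4.9 and 1.58 CPM in control libraries 7, 10 and 16 and 0.737, 1.61 and 2.25 CPM in knockout libraries 4, 5 and 6 (log2 fold change -1.66, SE 0.62, adjusted p = 0.101). The 2 control libraries with the highest Slc38a3 were also the 2 with the highest acinar marker sums. DESeq2 called this gene lower (-1.62, adjusted p = 0.022), as did edgeR without control library 16 (-2.06, adjusted p = 0.0185), while adjusting for the acinar marker level gave an estimate of 0.75 (adjusted p = 0.454). Slc38a5, another glutamine carrier, had 20.7, 18.3 and 16.7 CPM in control and 25.9, 35.6 and 20.6 CPM in knockout libraries (0.56, SE 0.19, adjusted p = 0.0733). DESeq2 called it higher (0.57, adjusted p = 0.0266), as did edgeR without knockout library 6 (0.74, adjusted p = 0.0206). Slc38a1 (0.82, SE 0.42) and Slc38a11 (-0.48, SE 0.25) did not pass.

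Of the Slc36 carriers, Slc36a1 exports small neutral amino acids from lysosomes and also acts at the cell surface. Slc36a1 fell from 115, 118 and 114 CPM in control libraries 7, 10 and 16 to 71.8, 81.1 and 82 CPM in knockout libraries 4, 5 and 6. The groups were far apart relative to their spread (log2 fold change -0.57, SE 0.07, adjusted p = 8.52e-04). Slc36a4 differed by 0.21 (SE 0.16) and did not pass. In the Slc43 family, Slc43a3, which carries purine nucleobases rather than amino acids, fell 1.83-fold, from 51.1, 75 and 66.3 CPM to 32.8, 36.7 and 35.8 CPM (log2 fold change -0.87, SE 0.14, adjusted p = 0.00333). Slc43a2, a carrier of large neutral amino acids, stood at 269 ± 22 and 217 ± 33.1 CPM (SD, n = 3 each, -0.31, SE 0.12, adjusted p = 0.0856 by edgeR). It was lower without knockout library 5 (-0.44, adjusted p = 0.0187). Slc43a1 was below 1 CPM in the mean of both groups (-0.08, SE 0.42).

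In the Slc6 family 2 genes rose, 3 fell and 2 of the 7 tested did not pass. That is 71.4% called in a small set, against 24.4% over all genes tested. Besides Slc6a15, Slc6a6, the taurine carrier, rose 1.58-fold, from 291, 328 and 319 CPM in control libraries 7, 10 and 16 to 512, 500 and 466 CPM in knockout libraries 4, 5 and 6 (log2 fold change 0.66, SE 0.08, adjusted p = 8.65e-04). The groups did not overlap. Slc6a9, the glycine carrier known as GlyT1, fell 3.05-fold, from 18.6, 14.1 and 10.5 CPM to 3.68, 5.49 and 5.06 CPM (log2 fold change -1.61, SE 0.24, adjusted p = 0.0025). Its order within the control group followed the acinar marker sums of those libraries. So did the order of other genes, among them Slc1a4, Slc7a1, Slc38a2 and Neurod1, and many genes can share an order of only 3 libraries. Adjusting for the acinar marker level gave an estimate of -0.76 for Slc6a9 (SE 0.24, adjusted p = 0.0869 by edgeR). Exons of Slc6a9 also share 1429 bases with Ccdc24 on the opposite strand in the GENCODE M21 models. Ccdc24 fell from 11.4 ± 0.692 to 6.75 ± 0.709 CPM (SD, n = 3 each, -0.76, SE 0.13, adjusted p = 0.00447 by edgeR). No source used here gives the use of strand in counting, so reads of the pair cannot be told apart in that stretch. The same holds for bases that other members share with opposite-strand genes, among them Slc1a1 (1216), Slc3a1 (601), Slc7a7 (232) and Slc7a2 (162).

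The other Slc6 falls were smaller. Slc6a17, a vesicular carrier of neutral amino acids in neurons, had 111, 85.7 and 91.3 CPM in control libraries 7, 10 and 16 and 75.2, 61 and 58.4 CPM in knockout libraries 4, 5 and 6 (log2 fold change -0.57, SE 0.13, adjusted p = 0.0153). It missed the threshold without knockout library 5 (-0.52, adjusted p = 0.0548). Slc6a8, the creatine carrier, had 37.2, 29.5 and 33.9 CPM in control and 24.4, 25.9 and 24.3 CPM in knockout libraries (log2 fold change -0.43, SE 0.10, adjusted p = 0.0151). It missed the threshold without knockout library 4 (-0.40, adjusted p = 0.0517) or control library 7 (-0.34, adjusted p = 0.0575). For both genes each knockout library was below each control library. Slc6a19 and Slc6a18, carriers of neutral amino acids in kidney and gut, differed by -0.09 (SE 0.20) and -0.18 (SE 0.58) and did not pass.

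Many carriers of classical transmitters were close to absent from the counts. Exceptions were the glycine carrier Slc6a9, at 14.4 CPM in control islets, and the glutamate carriers Slc1a1 and Slc1a3, which were tested at low levels. The 3 monoamine carriers Slc6a2, Slc6a3 and Slc6a4, which take up noradrenaline, dopamine and serotonin, had at most 7 counts in any library and were not tested. Slc6a3 had 0 of 98189516 counts over the 6 libraries, which allows up to 0.0306 counts per 1e+06 counts (from a floor of 3 counts, covering counting error only). The GABA carriers Slc6a11 and Slc6a13 and the betaine and GABA carrier Slc6a12 had at most 5 counts in any library. The glutamate carriers Slc1a2, Slc1a6 and Slc1a7 reached at most 15, 2 and 3 counts. The glycine carrier Slc6a5 and the proline carrier Slc6a7 reached at most 2 and 18 counts. In total 20 members were not tested, of which 15 had under 10 counts in every library. Slc36a2 was the uneven one, with 40 counts in knockout library 6 and between 0 and 6 in the other 5 libraries. Among other members that were not tested, Slc6a14, Slc7a9, Slc7a10, Slc7a12, Slc7a13, Slc36a3 and Slc38a8 had at most 12 counts in any library.

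Levels can be set side by side only per length. Divided by the merged exon length of the GENCODE M21 models, which may differ from the gene models used for counting, the highest level in control islets was that of Slc38a4, at 120 CPM per kb (lowest to highest library 92.4 to 135). It was followed by Slc7a2 at 90.5 (80.2 to 106), Slc38a10 at 75.3 (69.1 to 85.2), Slc3a2 at 67.1 (62 to 76.3), Slc7a8 at 53.1 (48.6 to 61.9), Slc6a6 at 50.5 (47 to 53), Slc38a2 at 48.1 (46.8 to 49.3) and Slc7a5 at 44 CPM per kb (38.6 to 53.7). Neighbours in this order overlapped in range, other than Slc3a2 and Slc7a8, whose nearest libraries stood at 62 and 61.9. In knockout islets Slc7a8 came first at 135 CPM per kb (118 to 161), ahead of Slc38a4 at 120 (102 to 130), whose range it overlapped, and of Slc3a2 at 84.2 (76.3 to 89.5). Slc7a2 moved from rank 2 in control to rank 6 in the knockout, at 60.4 CPM per kb (58.2 to 61.7), and Slc7a5 from rank 8 to rank 10, at 24.9 (23.1 to 26.9). The 6 highest members of each group took 58.5% of the summed level per length in control and 68.3% in knockout islets.

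**Figure D3:**
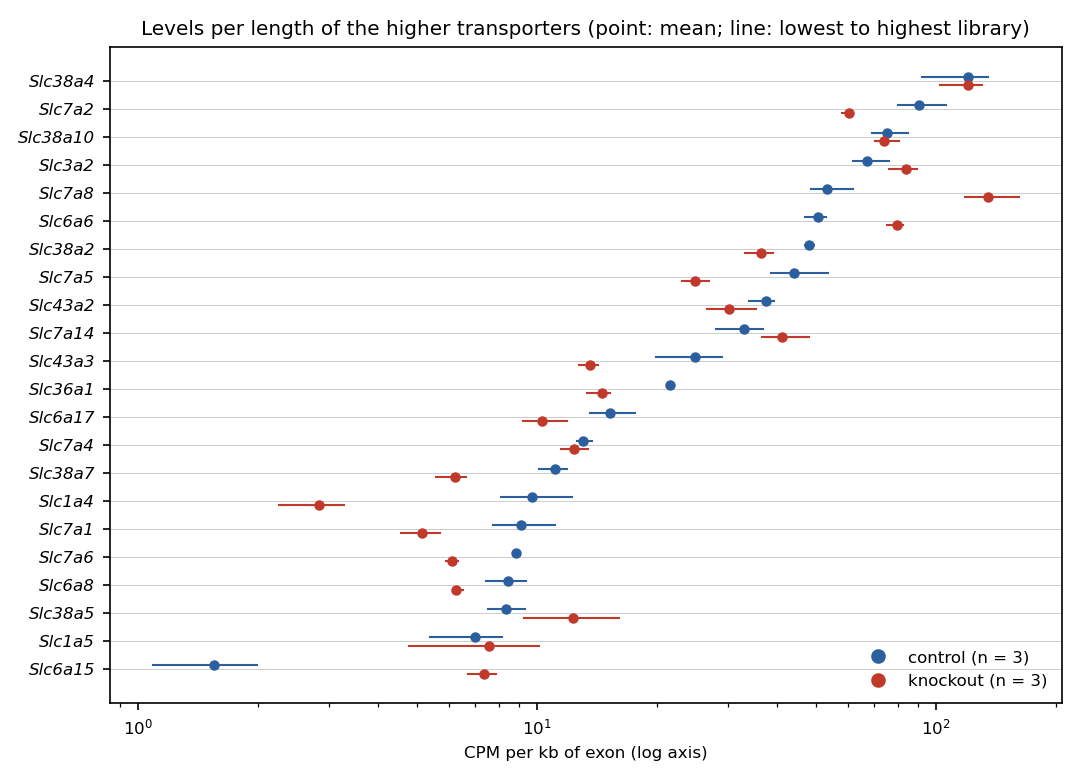
Level per length (CPM per kb of exon, log axis) of the transporters with a group mean of at least 5 CPM per kb, ordered by the control mean, with controls in blue and knockouts in red. Points are means, lines run from the lowest to the highest of 3 libraries, Slc7a8 moves from 53.1 to 135, and Slc6a15 from 1.55 to 7.36 CPM per kb.

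Genes around the transporters were taken from 6 lists of partners, enzymes, sensors and response genes, of which 100 were tested. Of these, 7 were higher and 33 lower, or 40% called, against 24.4% over all genes tested (11.8% higher and 12.6% lower), and the median log2 fold change was -0.17. The called share by list was 33.3% for other transporters and accessory proteins, 50% for glutamate, glutamine and GABA enzymes, 35% for the other amino acid enzymes, 30.8% for branched-chain breakdown, 35.7% for mTORC1 sensing and 60% for the Atf4 response. The lists were drawn up with results of these libraries known, so their direction is no independent evidence.

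Among 12 tested genes for other transporters and accessory proteins 1 rose and 3 fell. Tmem27, also called collectrin, which brings Slc6a18 and Slc6a19 to the cell surface in kidney, rose from 698 ± 40.4 to 1220 ± 147 CPM (SD over 3 libraries each, log2 fold change 0.81, SE 0.11, adjusted p = 0.00113 by edgeR). The lysosomal cystine carrier Ctns fell from 45.8 ± 3.29 to 31.5 ± 1.22 CPM (-0.54, SE 0.08), the vesicular acetylcholine carrier Slc18a3 by 1.28 (SE 0.22) and Slc6a20a by 1.20 (SE 0.37) on the log2 scale. Slc6a20a, a proline carrier, stood at 1.18 ± 0.0844 and 0.518 ± 0.178 CPM (SD, n = 3 each). Slc32a1, the vesicular GABA carrier, had 0 counts in all 6 libraries, with the same limit as Slc6a3.

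Of 12 enzymes of glutamate, glutamine and GABA, 1 rose and 5 fell. Glutamine synthetase, Glul, fell from 396 ± 64.6 to 112 ± 16.6 CPM (SD over 3 libraries each, log2 fold change -1.83, SE 0.15, adjusted p = 1.27e-04 by edgeR). Of the glutamate decarboxylases that make GABA, Gad1 fell from 117 ± 26.8 to 30.1 ± 9.54 CPM (-1.96, SE 0.29), while Gad2 rose from 0.721 ± 0.429 to 19.2 ± 4.61 CPM (4.78, SE 0.36). The alanine aminotransferase Gpt2 fell from 23.5 ± 2.8 to 13.5 ± 0.793 CPM (-0.81, SE 0.11). The number that fell was 3 without knockout library 5 or without control library 7. Of 20 enzymes that make or use other transported amino acids, 0 rose and 7 fell. These included asparagine synthetase, Asns (127 ± 25.7 to 63.1 ± 4.64 CPM, -1.01, SE 0.14), the creatine synthesis enzyme Gatm (48 ± 11.7 to 21.8 ± 1.69 CPM, -1.14, SE 0.17) and the proline synthesis enzymes Pycr1 (-0.87, SE 0.17) and Aldh18a1 (-0.64, SE 0.12). By edgeR 1 of them, Odc1, was higher at an unadjusted p under 0.05, and DESeq2 called 0 higher and 8 lower. Without knockout library 4 edgeR called 1 higher and 5 lower, and without knockout library 5 it called 4 lower.

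The remaining lists held breakdown enzymes, sensors and stress response genes. Of 13 genes of branched-chain amino acid breakdown, 3 rose and 1 fell, namely the aminotransferase Bcat2 (0.41, SE 0.11), the dehydrogenase phosphatase Ppm1k (0.43, SE 0.08) and the leucine breakdown enzyme Auh (0.44, SE 0.13) as higher and Acadsb (-0.42, SE 0.07) as lower. The number that rose was 1 without control library 10 or 16. Of 28 genes of amino acid sensing by mTORC1, 2 rose and 8 fell. Gatsl2, a relative of the arginine sensor Castor1, fell from 230 ± 19.2 to 145 ± 7.39 CPM (SD, n = 3 each, -0.66, SE 0.08). Folliculin, Flcn (-0.71, SE 0.09), its partner Fnip2 (-1.05, SE 0.18) and the GTPase gene Rragd (-0.44, SE 0.08), which act together at the lysosome, fell as well. The number that rose was 0 without knockout library 5 or control library 7 or 10, and 1 without any other single library.

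Of 15 genes of the Atf4 amino acid response, 9 fell, 0 rose and 6 did not pass. Their median log2 fold change was -0.43. Vldlr, a lipoprotein receptor, fell from 78.3 ± 11.4 to 26.1 ± 0.985 CPM (SD, n = 3 each, -1.59, SE 0.11), the translation repressor Eif4ebp1 from 18.2 ± 4.52 to 5.38 ± 0.234 CPM (-1.76, SE 0.19), the pseudokinase Trib3 from 7.86 ± 2.93 to 1.97 ± 0.375 CPM (-2.00, SE 0.31) and the glutathione-cleaving enzyme Chac1 from 32.3 ± 13.2 to 6.75 ± 1.24 CPM (-2.27, SE 0.33). By edgeR 0 of the 15 genes were higher at an unadjusted p under 0.05, and DESeq2 called 0 higher and 10 lower. Atf4 itself was at 278 ± 24.5 and 217 ± 13.3 CPM and fell as well (-0.36, SE 0.09, adjusted p = 0.019 by edgeR).

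**Figure D4:**
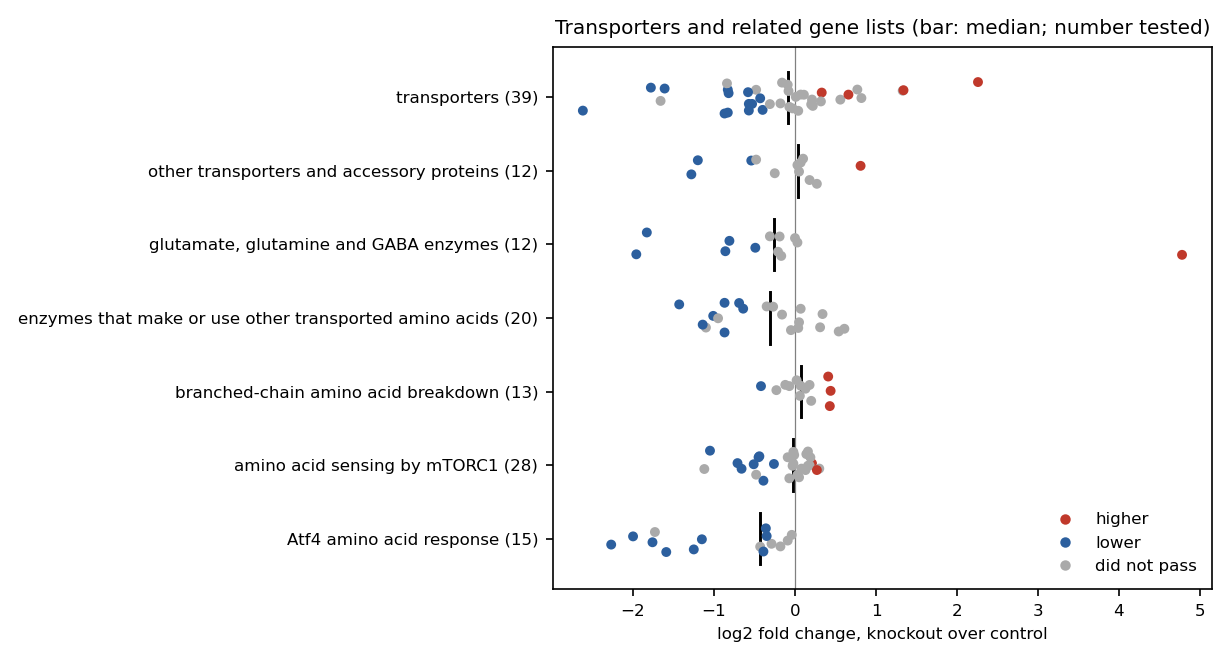
Log2 fold change (knockout over control, horizontal axis) of each tested gene in the transporter set and the 6 related lists, with the number tested in parentheses. Red and blue points passed as higher and lower, grey points did not pass, and black bars are list medians, from -0.43 for the Atf4 response to 0.07 for branched-chain breakdown, and the point at 4.78 is Gad2.

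The mean acinar marker level, as log2(CPM + 1), was 9.62, 9.37 and 8.31 for controls 7, 10 and 16, against 6.76, 8.06 and 7.71 for knockouts 4, 5 and 6. By this mean each knockout library lay below each control library, so level and genotype are only partly separable in these 6 libraries. The summed CPM overlapped, with control library 16 at 14200 and knockout library 5 at 15000. In the mean, the place of control library 16 above knockout library 5 hinges on Amy2a5 alone, at 55.3 and 0.134 CPM. It stood at 0.671 and 1.23 CPM in control libraries 7 and 10. Bhlha15, with its higher estimate in the knockout, is also part of the mean. A mean without Amy2a5 or Bhlha15 was not tried as a covariate. With the mean acinar marker level as a covariate, 4 transporters were higher and 3 lower, beside 729 higher and 582 lower over all genes tested. Of the 17 transporters called without it, 6 passed again, namely Slc6a15 (2.04, SE 0.33, adjusted p = 0.0145), Slc7a8 (1.66), Slc6a6 (0.57), Slc38a7 (-1.04), Slc36a1 (-0.44) and Slc7a6 (-0.57). Slc7a14 was called with the covariate (0.75, SE 0.15, adjusted p = 0.0224). All 17 kept their direction, and the estimates of 13 moved by less than 0.2 on the log2 scale. Slc1a4 was at -1.69 (SE 0.38, adjusted p = 0.0511), Slc7a5 at -0.72 (SE 0.25, adjusted p = 0.14), Slc7a1 at -0.72 (SE 0.29, adjusted p = 0.185) and Slc7a2 at -0.47 (SE 0.20, adjusted p = 0.183). Among the related lists 4 genes were higher and 8 lower with the covariate, of which 2 lower genes were in the Atf4 list, 1 higher and 1 lower in the list of glutamate, glutamine and GABA enzymes, 0 in that of the other amino acid enzymes, 1 higher and 0 lower in branched-chain breakdown, 1 higher and 4 lower in mTORC1 sensing, and 1 higher and 1 lower among accessory proteins and other transporters.

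**Figure D5:**
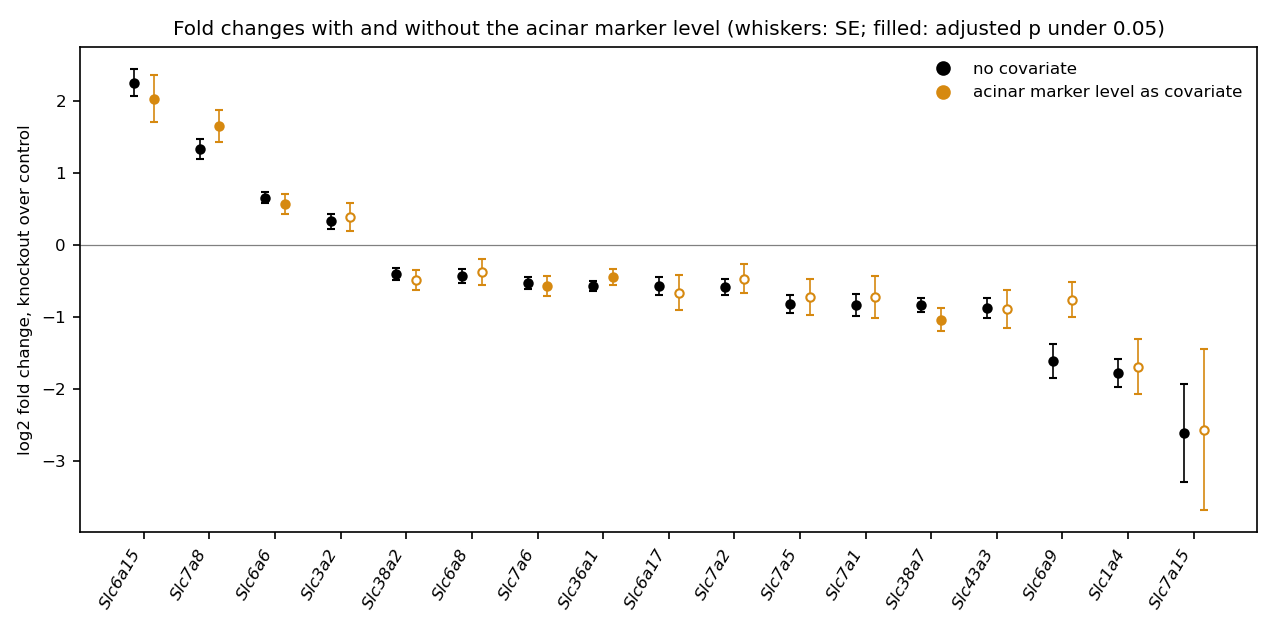
Log2 fold change (knockout over control, vertical axis) of the 17 transporters that passed the test, without a covariate (black) and with the mean acinar marker level as a covariate (orange). Whiskers are standard errors and filled points passed an adjusted p of 0.05, which 6 of 17 did with the covariate, and the estimate of Slc6a9 moves from -1.61 to -0.76.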

How the data were processed

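RNA of isolated islets was sequenced in 3 knockout and 3 control libraries. Whole-number counts for each gene and library were deposited by the authors, made with bcl2fastq 1.8.4, TopHat2 2.1.0 and Cufflinks 2.0.2 on the mm9 build, per the submitters' processing notes, which give these tools no roles. No source used here names the counter, the annotation or whether strand was used. The authors also deposited a DESeq comparison with mean signal (size-factor scaled counts), fold ratio, log2 fold change and p-values, per the file headers. It served only to compare calls.

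Counts as deposited were tested with edgeR 4.0.16 in R 4.3.3 (filterByExpr, TMM factors of 0.988 to 1.021, robust quasi-likelihood test, knockout against control, Benjamini-Hochberg adjustment over 14770 of 23284 genes). The biological coefficient of variation was 14.2%. The script was tested on simulated data. The total of 12206393 to 20412435 counts per library sets the counting precision. CPM are counts per 1e+06 TMM-scaled counts, and each mean ± SD is over 3 libraries. A gene is called at an adjusted p under 0.05. The members and lists were chosen with earlier results of these data known. Transporters past the threshold are given with each library's value, the values of some genes are not reported here, and up to 4 genes past the threshold with the smallest p are named per list. Alternatives were DESeq2 1.42.0, upper-quartile factors, limma-voom (limma 3.58.1), no filter on low counts, no robust estimation, the mean acinar marker level as a covariate, and leaving out each library.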

Additional observations from a re-analysis of the deposited data

How the results depend on the processing

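The transporters counted as higher and lower were 6 and 14 by DESeq2 and 3 and 13 with upper-quartile factors, limma-voom or no robust estimation. Leaving out each library gave 3 to 5 higher and 12 to 13 lower, and 13 of the 17 called transporters passed each time. With the acinar covariate 3 transporters were lower, and the related lists had 4 higher and 8 lower. Leaving out each library gave 3 to 7 higher and 23 to 32 lower list genes. The number higher was 4 without knockout library 5, control library 7 or control library 16, and 3 without control library 10. No called transporter changed sign. Of those not called, the covariate reversed Slc1a1 (-0.50), Slc38a10 (0.17), Slc38a3 (0.75), Slc38a4 (-0.25), Slc38a6 (-0.02), Slc38a9 (0.17) and Slc7a4 (0.07). Upper-quartile factors reversed Slc38a4 (-0.03), and no filter reversed Slc38a10 (0.01). With libraries left out, log2 fold changes ran from -0.28 to 0.54 for Slc1a1, -0.15 to 0.59 for Slc1a3, -0.14 to 0.36 for Slc1a5, -0.09 to 0.08 for Slc38a10, -0.14 to 0.13 for Slc38a4, -0.37 to 0.01 for Slc38a9, -0.29 to 0.52 for Slc3a1, -0.41 to 0.15 for Slc43a1, -0.57 to 0.18 for Slc6a18, -0.19 to 0.11 for Slc6a19 and -0.11 to 0.00 for Slc7a4. The cause was not tested. No paired analysis was possible because the groups share no replicate number. At this depth 20 transporters had too few counts to be tested.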
